A study of Mus musculus with 2 samples.

Results

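The Hoxd cluster and Evx2 are 10 homeobox genes in a row on mouse chromosome 2. All 10 named members (Hoxd1, Hoxd3, Hoxd4, Hoxd8, Hoxd9, Hoxd10, Hoxd11, Hoxd12, Hoxd13 and Evx2) were found in the gene annotation, out of 21938 protein-coding genes. The rule that names them uses no measured value, but they were chosen with earlier results of these data known. Open chromatin was mapped by DNase-seq, in which the nuclease DNase I cuts accessible DNA more often than its surroundings, in MN1, a mouse line of strain B6NCrl that the labels describe as immortalized. There was 1 group of 2 biological replicates, and the cells of both had received methyltrienolone, a synthetic androgen, at 10 nM. No untreated library was analysed here, so every value is a level in androgen-treated cells and not a response. The labels give the line and no tissue.

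Hox genes encode transcription factors that give cells their position along the body axis. They lie in their clusters in the order in which they are used from anterior to posterior, and where they are silent the cluster is typically held by Polycomb group proteins. The Hoxd genes are known for their part in the limbs, the genitalia and the spinal cord. Their enhancers lie far away, in gene-poor regions on both sides of the cluster, here called the centromeric desert (beyond Evx2) and the telomeric desert (beyond Hoxd1). CTCF, a zinc finger protein that helps to form chromatin loops, binds inside the cluster and in both deserts, and the direction of its motif bears on which sites can be joined by a loop.

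The authors' lists held 189648 distinct peaks on the main chromosomes in replicate 1 and 170745 in replicate 2, each 150 bp wide and with a score from 1 to 150. Peaks of both replicates that overlapped were merged into 127807 shared regions, and a promoter is called open where such a region lies within 1 kb of any annotated transcription start site (TSS) of the gene. The number of reads behind the lists is unknown, so the lists cannot show that a promoter is closed. Both replicates had shared promoter regions at 10 of 10 neuronal genes checked, at 5 of 7 motor neuron genes and at 2 of 7 limb and mesenchyme genes. None of the 4 blood genes had one. The share was 71.4% for the motor neuron genes, of which Mnx1 and Slc5a7 had no promoter peak, and 59.5% over all protein-coding genes.

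No Hoxd gene had a peak at its promoter, and neither did Evx2. The count of open promoters was 0 of 10, beside 59.5% of all protein-coding genes. No member had a promoter peak in replicate 1 or in replicate 2 taken singly, where 61.9% and 60.8% of all protein-coding genes had one. Hotspots, the wider enriched stretches that the authors called in each library, were found in both replicates at 59.9% of protein-coding promoters and at 0 of the 10. The members lie side by side and Hoxd3 and Hoxd4 share a first start site to within 2 bp, so they do not count as independent observations.

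What the cluster did hold was a small number of open sites between its genes. The regions present in both replicates were 4, in the 112.2 kb from the end of Evx2 to the end of Hoxd1. Their sequences are shown because they are all the regions of the cluster where peaks of both replicates overlap. Each line gives the central 150 bases of a region on the plus strand of mm10, the strand on which the Hoxd genes are read, with exact matches to the CTCF consensus (CCANNAG followed directly by NNGGC, N being any base) or its reverse complement in capitals.
Between Evx2 and Hoxd13 (chr2:74663696-74663845): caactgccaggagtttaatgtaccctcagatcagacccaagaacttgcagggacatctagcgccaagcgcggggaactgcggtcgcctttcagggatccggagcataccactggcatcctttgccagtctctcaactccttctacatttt
Between Hoxd13 and Hoxd12 (chr2:74673056-74673205): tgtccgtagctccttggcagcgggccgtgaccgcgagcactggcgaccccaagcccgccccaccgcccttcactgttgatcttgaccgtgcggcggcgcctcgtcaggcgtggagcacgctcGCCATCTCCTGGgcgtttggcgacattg
Between Hoxd9 and Hoxd8 (chr2:74702336-74702485): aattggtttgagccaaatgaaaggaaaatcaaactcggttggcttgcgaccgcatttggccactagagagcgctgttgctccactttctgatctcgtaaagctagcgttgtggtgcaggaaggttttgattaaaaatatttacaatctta
Start of Hoxd3os1 (chr2:74715886-74716035): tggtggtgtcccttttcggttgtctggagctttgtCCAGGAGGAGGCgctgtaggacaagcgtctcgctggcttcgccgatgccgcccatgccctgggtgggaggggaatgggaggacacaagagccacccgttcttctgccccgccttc

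The strongest of the 4 lay between Hoxd13 and Hoxd12 (chr2:74673056-74673205). Its peak scored 91 in replicate 1 and 79 in replicate 2, at percentiles 77.2 and 74.4 of the respective list. It was placed at the same bases in both replicates, and the hotspot around it was 588 bp wide in replicate 1 and 887 bp in replicate 2. This region came nearest to a member's start, 1808 bp upstream of Hoxd12. The region at the start of the antisense RNA Hoxd3os1 (chr2:74715876-74716045) scored 54 in replicate 1 and 80 in replicate 2, at percentiles 51.5 and 75. It overlapped an exon of Hoxd3os1 and lay within introns of Hoxd3 and Hoxd4, 3947 bp from the nearest start of Hoxd4. The region between Hoxd9 and Hoxd8 (chr2:74702336-74702485) scored 47 in replicate 1 and 78 in replicate 2, at percentiles 43.9 and 73.7, and lay 2130 bp upstream of Hoxd8. The weakest, between Evx2 and Hoxd13 (chr2:74663676-74663865), scored 33 in replicate 1 and 50 in replicate 2, at percentiles 23.8 and 49.2, and was 4119 bp upstream of Evx2. In percentile terms 3 of the 4 stood higher in replicate 2 and the Hoxd13-Hoxd12 region a little lower.

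**Figure D1:**
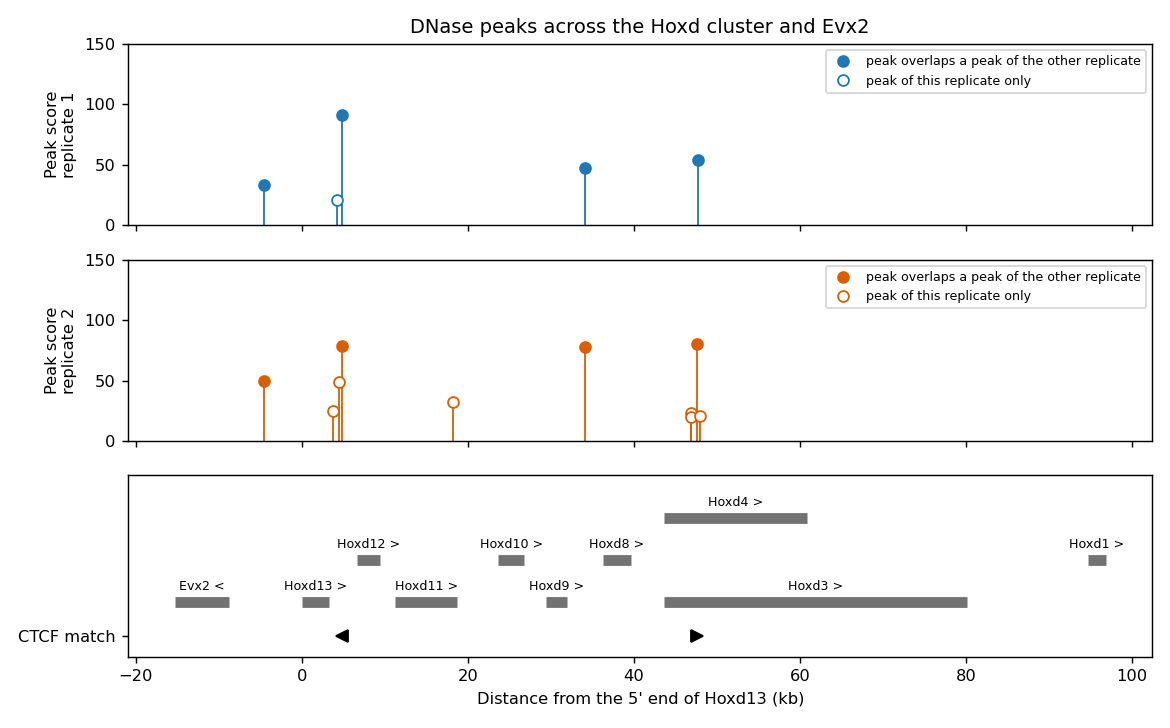
Peak scores of the authors (vertical axis, 0 to 150, no unit) against distance from the 5′ end of Hoxd13 (kb) in replicate 1 (top) and replicate 2 (middle), with gene bodies and exact CTCF matches in shared regions below. Filled points overlap a peak of the other replicate and open points do not. The 4 shared sites lie between genes or at the start of Hoxd3os1, and nothing is seen over the right part of the cluster, where Hoxd1 lies.

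Beyond these, replicate 1 had 1 further peak in the cluster and replicate 2 had 6. The peaks without an overlapping partner were 1 of 5 in replicate 1 and 6 of 10 in replicate 2 (60%), while over the genome they were 31.3% and 23.3%. With the peaks of replicate 2 alone the cluster would hold 9 merged sites, with those of replicate 1 alone 5. The partnerless peaks lay around the 2 sites with a CTCF match, apart from a peak of replicate 2 in an exon of Hoxd11 (chr2:74686396-74686545, score 32). The highest of them, with a score of 49 in replicate 2, was 2108 bp upstream of Hoxd12 and inside a hotspot that replicate 1 also had.

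Read from the posterior end, the members differed in how far the nearest open site was. Evx2, a homologue of the Drosophila even-skipped gene, is read away from the cluster, and its nearest peak was 4159 bp from a start in replicate 1 and 4119 bp in replicate 2. For Hoxd13, a gene of digits and genitalia, these distances were 4166 bp and 3726 bp. Hoxd12 had its nearest peak at 1808 bp in both replicates. Hoxd11, a gene of the forearm and the kidney, was 6352 bp away in replicate 1 and 4073 bp in replicate 2. Hoxd10, known from lumbar motor neurons, was 10412 bp away and 5379 bp away. No peak lay at the start of any of these 5 genes of the posterior end, and the 2 replicates gave the same nearest distance only for Hoxd12.

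Hoxd9 lay 4609 bp and Hoxd8 2130 bp from the same peak in both replicates. Hoxd3 and Hoxd4, genes of the hindbrain and neck, had their nearest peaks at 3969 and 3967 bp in replicate 1 and at 3169 and 3167 bp in replicate 2. Hoxd1, which is expressed in sensory neurons that detect pain, stood farthest from any peak, at 46935 bp in replicate 1 and 46595 bp in replicate 2. In both replicates that peak was at or beside the start of Hoxd3os1. The last 48757 bp of the cluster (chr2:74716386-74765142) had no peak in either replicate. They hold the Hoxd1 promoter, the microRNA gene Mir10b and the long noncoding RNA gene Haglr. The promoter of Hoxd4 in the RefSeq annotation (chr2:74721728-74722027) lies there too. The Hoxd4 distances given here are from the start that it shares with Hoxd3, which is nearer to a peak. The members closest to being called open were Hoxd12 and Hoxd8, and with a window of 2.5 kb in place of 1 kb these 2 were called, where 63.4% of protein-coding genes were. The next nearest was Hoxd4, 3947 bp from the region at Hoxd3os1. With a window of 500 bp, which could only lower the count, 0 of 10 were called, beside 57.8%.

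Promoters rich in CpG dinucleotides are a kind that is open in most cell types, and the members differed in this respect. The promoter of Hoxd13 is shown because it had the most CpG of the 10, with each CpG in capitals. The stretch is the 250 bases before the RefSeq start (GRCm38.p6, chr2:74667975-74668224, plus strand).
Hoxd13 promoter: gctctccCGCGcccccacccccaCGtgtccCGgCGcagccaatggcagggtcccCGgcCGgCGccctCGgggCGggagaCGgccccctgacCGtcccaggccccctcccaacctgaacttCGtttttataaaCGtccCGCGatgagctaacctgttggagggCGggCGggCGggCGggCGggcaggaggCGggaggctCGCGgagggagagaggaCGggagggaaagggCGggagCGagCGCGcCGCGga
With the 50 bases after the start it holds 37 CpG, against a median of 7 over 32851 such promoter windows of 300 bases in the RefSeq table, and no peak of either replicate touched it. All 10 members matched the table, and the windows of the others had no peak either. Their CpG numbers lay on both sides of that median, with 29 at Hoxd1, 22 at Hoxd10, 20 at Hoxd9 and at Hoxd3, 16 at Evx2 and 13 at Hoxd12 above it and 6 at Hoxd8 and 4 at Hoxd4 below. Hoxd11 had a window with 4 and another with 25.

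Counts in a wider 1 kb were made around the 5′ end of the gene model. For Hoxd4 that is the start shared with Hoxd3, away from its RefSeq window. For Hoxd11 it lies in the RefSeq window with 4 CpG, not in the one with 25. In this 1 kb the members had between 44 CpG (Hoxd11) and 117 (Hoxd13), with a median of 61. The median over protein-coding genes was 41. Hoxd1 had 93, Hoxd9 70, Hoxd8 69, Evx2 59, Hoxd10 49 and Hoxd12 47. Hoxd11, Hoxd12 and Hoxd10 thus lay near the middle of all protein-coding genes, at percentiles 52.4, 55 and 56.7, and Hoxd13 and Hoxd1 near the top, at 97.2 and 90.3. Within that range of CpG numbers there were 9932 protein-coding genes, of which 86.7% had an open promoter. The share was 87.8% with replicate 1 alone and 87.5% with replicate 2 alone. Among genes with 100 or more CpG, as Hoxd13 has, 89.1% were open. Of all 36 bp sequences in the cluster, 98.6% occurred at a single place on the main chromosomes. In the 2 kb around the 5′ ends of the members' gene models the share ran from 93.8% (Hoxd3 and Hoxd4) to 100%. The length of 36 bp was chosen for this count, and whether reads could be placed there was not tested.

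**Figure D2:**
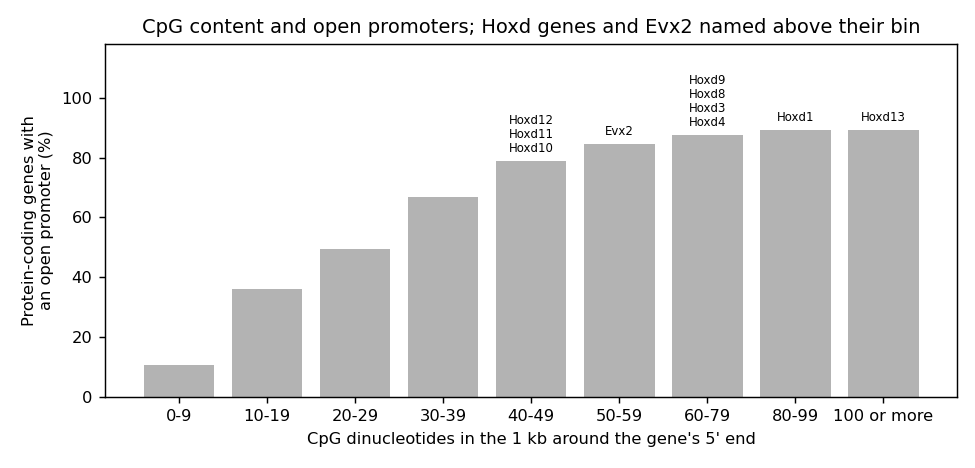
Share of protein-coding genes with an open promoter (vertical axis, %) by the number of CpG dinucleotides in the 1 kb around the 5′ end (horizontal axis), with the 10 members written above the bar of their bin. The members fall in bins where 78.9% to 89.3% of genes were open, and none of the 10 was. Bins use the 5′ end of the gene model, which for Hoxd4 is the start shared with Hoxd3 and not its RefSeq promoter.

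The other Hox clusters give the members' paralogues, the genes that share an ancestor and a number. Of 18 paralogues of the 8 Hoxd genes from Hoxd3 to Hoxd13 in the Hoxa, Hoxb and Hoxc clusters, 5 had an open promoter: Hoxa4, Hoxc4, Hoxc9, Hoxa10 and Hoxc10. Hoxc10 scored 142 in replicate 1 and 136 in replicate 2, and Hoxa10 30 and 39, whereas Hoxd10 had no peak. The peak of Hoxc10 is also the highest within 1 kb of a start of Hoxc5. Hoxc9 scored 116 and 104, with no peak at Hoxd9, Hoxa9 or Hoxb9. For Hoxd4 both Hoxc4 (104 and 95) and Hoxa4 (89 and 90) were open, and Hoxb4 had no peak. In the Hoxb cluster as a whole 0 of 10 genes had an open promoter, as in Hoxd, but Hoxb6 had a promoter peak in replicate 1 only (36). The paralogues of groups 11 to 13 had an open promoter at 0 of 6, so at the posterior end the Hoxd genes did not stand alone. In groups 3 and 8 no paralogue was open either, but Hoxa3 had a promoter peak in replicate 1 only (49), unlike Hoxd3. Evx1, the relative of Evx2 near the Hoxa cluster, was likewise without a promoter peak.

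**Figure D3:**
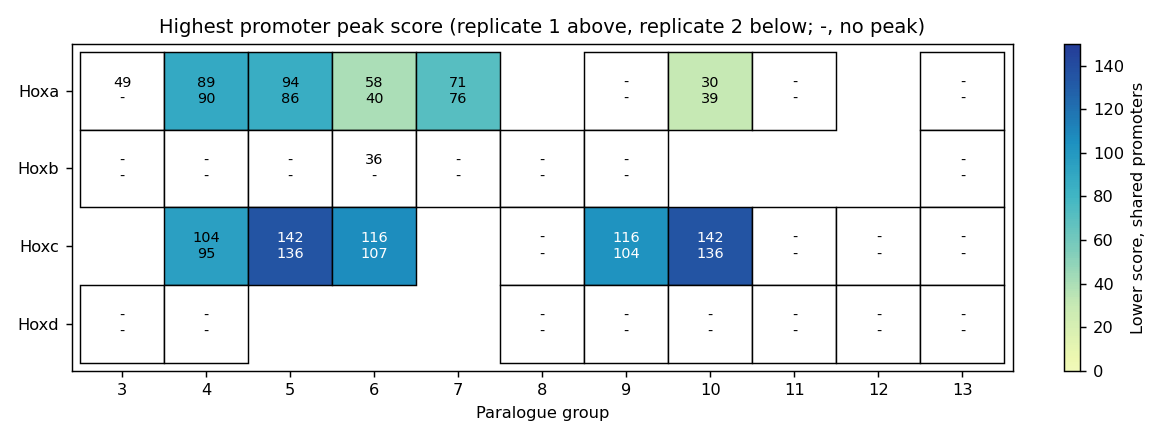
Highest promoter peak score of each Hox gene of paralogue groups 3 to 13 by cluster (rows) and paralogue group (columns), with replicate 1 above replicate 2 in each cell and a dash for no peak. Shading gives the lower score where the promoter region was shared, and the Hoxd row carries a dash in every cell.

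By the density of shared regions the Hoxd cluster resembled Hoxb. It had 0.357 per 10 kb, Hoxb 0.345, Hoxa 1.71 and Hoxc 2.59. The Hoxd stretch includes Evx2, and the other stretches run between Hox genes only. Without Evx2 the Hoxd density was 0.31, and with Evx1 that of Hoxa was 1.17. The Hoxb stretch, which reaches to Hoxb13, is the longest at 173.9 kb. Hotspots covered 1.44% of the Hoxd cluster in replicate 1 and 2.39% in replicate 2. The same values were 1.19% and 0.892% in Hoxb, 7.65% and 5% in Hoxa, and 13.7% and 11.2% in Hoxc. No test was made between clusters, since each is a single stretch of DNA in the same 2 libraries.

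The deserts are the stretches of 800 kb beyond the outer ends of the cluster. Their own genes had strong promoters: Lnpk, a protein of endoplasmic reticulum junctions, scored 140 in replicate 1 and 133 in replicate 2, and Mtx2, a mitochondrial outer membrane protein, 139 and 125. At the far end of the centromeric desert Atp5g3, a subunit of ATP synthase, scored 139 and 127, and Atf2, a transcription factor of the CREB family, 150 and 138. These are 4 of the 5 other protein-coding genes with a 5′ end in the cluster or deserts. The fifth, Gm28230, lies inside the cluster and had no promoter peak. Of the 31 annotated genes that are not protein-coding, pseudogenes included, 3 had an open promoter. They were Gm10822 and 4930445N08Rik, which share the promoters of Atf2 and Lnpk, and Hoxd3os1. The share over all such genes of the genome was not counted. Haglr, whose start lies beside that of Hoxd1, had no promoter peak, and neither had Mir10b.

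The 2 deserts differed in the number of open sites. The centromeric desert held 29 shared regions and the telomeric desert 6, from 40 and 16 peaks in replicate 1 and 43 and 16 in replicate 2. Of these, 21 and 4 were centred more than 2.5 kb from any TSS. The surplus lay at the far end: of the 29 centromeric regions, 22 lay more than 400 kb from the cluster, on the side of Atp5g3 and Atf2, and the one nearest to the cluster among them was 155450 bp from the start of Atp5g3. Within 400 kb there were 7 on the centromeric side and 6 on the telomeric side. Between 400 and 800 kb beyond Hoxd1 there was no shared region.

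**Figure D4:**
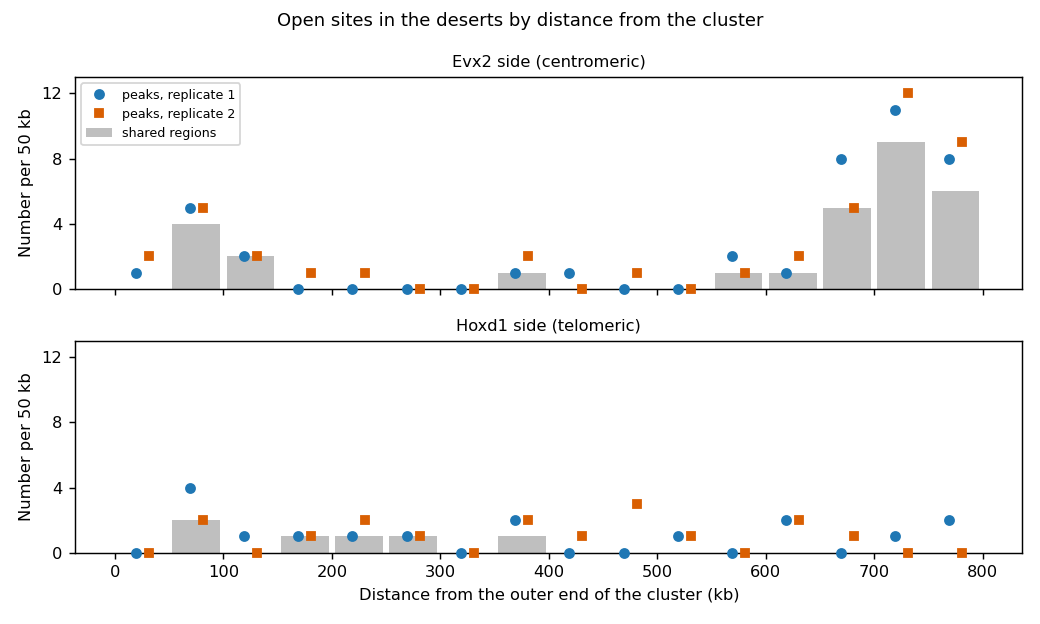
Number of open sites per 50 kb (vertical axis) by distance from the outer end of the cluster (kb) in the centromeric (top) and telomeric (bottom) desert, as shared regions (bars) and peaks of each replicate (points). Shared regions are missing from 8 of 16 bins on the centromeric and 11 of 16 on the telomeric side, and the fullest bin, with 9, lies 700 to 750 kb beyond Evx2.

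Long stretches of the deserts had no shared region. The longest ran for 433.8 kb on the telomeric side (chr2:75151246-75585055), and others of 233.4 kb and 212.2 kb lay on the centromeric side. Of 125115 intervals between neighbouring shared regions on the autosomes, whose median was 3430 bp, 703 (0.562%) were at least as long as the longest. These stretches were not without peaks: the longest had 6 in replicate 1 and 9 in replicate 2, none of them paired. In the telomeric desert as a whole 62.5% of the peaks of each replicate had no partner, and with the peaks of a single replicate it would hold 16 or 15 sites in place of 6. Its 36 bp sequences occurred at a single place in 95% of cases, and those of the centromeric desert in 92.5%.

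Sparse open chromatin is common in gene-poor sequence. Among 916 autosomal windows of 800 kb with 1 to 3 protein-coding genes, the median was 9 shared regions and the quartiles were 1 and 28. The telomeric desert, with 6, was matched or undercut by 44.5% of these windows. The centromeric desert, with 29, stood above most of them, since 76% had as many or fewer. Just beyond the limit on the telomeric side, 3 shared regions came 20 to 25.2 kb farther out, with scores from 51 to 77 in replicate 1 and from 68 to 85 in replicate 2.

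Away from promoters, the site with the highest scores was centromeric, 13890 bp from the start of Atp5g3 (chr2:73925216-73925365), with 129 in replicate 1 and 130 in replicate 2. It was the only distal site of the domain above percentile 90 in both lists. Nearer to the cluster, 3 neighbouring regions shared 1 hotspot (1832 bp wide in replicate 1 and 1187 bp in replicate 2), of which chr2:73952576-73952785 scored 106 and 73. The sites farthest from any TSS were weaker. On the centromeric side the farthest, 67167 bp from a start (chr2:74027836-74027985), scored 41 in replicate 1 and 56 in replicate 2. The next by distance were chr2:73998676-73998845 (68 and 74, with an EBF site), chr2:74066776-74066925 (26 and 47, with an AP-1 site), chr2:73932796-73932945 (74 and 55) and chr2:74512776-74512945 (21 and 23). On the telomeric side the farthest, 82353 bp from a start (chr2:75055296-75055445), scored 30 and 56. A second region at Mtx2, in its intron, scored 108 and 93, and one in an intron of Lnpk near its start 76 and 76. The strongest telomeric site apart from Mtx2 (chr2:74964456-74964625) scored 66 and 82, in intergenic sequence 95475 bp from the start of Mtx2. A second site stood beside it (chr2:74965556-74965745, 31 and 50), and the last, in introns of the noncoding genes 2600014E21Rik and A330043C09Rik (chr2:75151056-75151245), scored 23 and 26.

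**Figure D5:**
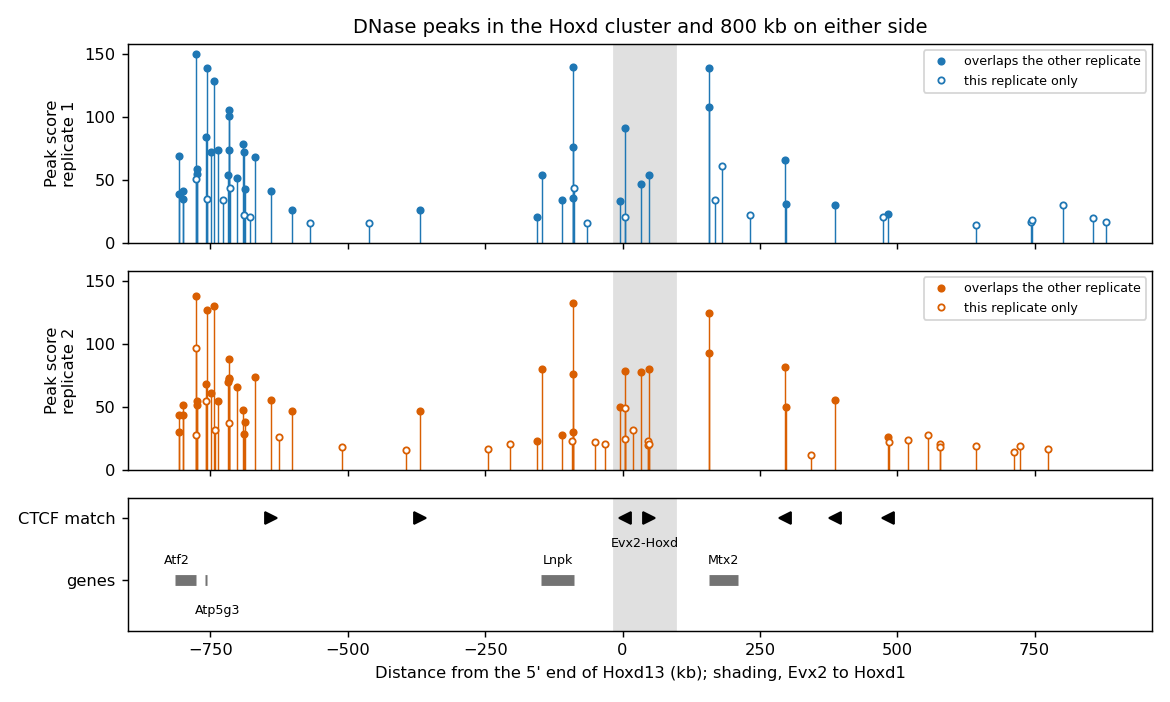
Peak scores of the authors (vertical axes) across the cluster (shaded) and 800 kb on either side against distance from the 5′ end of Hoxd13 (kb), for replicate 1 (top) and replicate 2 (middle), with protein-coding neighbours and exact CTCF matches in shared regions below, each triangle pointing the way the motif reads. Scores above 120 lie at the promoters of Atf2, Atp5g3, Lnpk and Mtx2 and at 1 distal site near Atp5g3, and the 5 triangles in the deserts point towards the cluster.

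Matches to the CTCF consensus (both strands, no mismatch, central 150 bases) were found in 2 of the 4 regions of the cluster, in 2 of the 29 of the centromeric desert and in 3 of the 6 of the telomeric desert. Over all shared regions 7.62% held a match. The 3 telomeric matches are all the shared regions there outside Mtx2 but 1. In the cluster as a whole the consensus occurred at 3 places, and the one outside a peak lay 2558 bp from the start of Evx2. In the deserts most matches were not in open regions, since the centromeric desert has 52 and the telomeric desert 38. The 5 desert regions with a match are shown for the direction of the motif, in capitals, on the plus strand of mm10.
Centromeric, far (chr2:74027836-74027985): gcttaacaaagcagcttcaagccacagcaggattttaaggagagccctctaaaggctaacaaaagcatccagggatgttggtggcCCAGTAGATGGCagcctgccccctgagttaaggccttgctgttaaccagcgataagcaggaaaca
Centromeric, near (chr2:74300366-74300515): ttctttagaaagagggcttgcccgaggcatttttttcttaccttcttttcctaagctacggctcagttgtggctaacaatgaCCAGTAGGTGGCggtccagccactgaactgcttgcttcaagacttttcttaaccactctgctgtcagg
Telomeric, near (chr2:74964466-74964615): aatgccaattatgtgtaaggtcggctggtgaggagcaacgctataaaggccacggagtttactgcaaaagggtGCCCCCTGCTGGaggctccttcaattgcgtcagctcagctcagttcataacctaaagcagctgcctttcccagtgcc
Telomeric, middle (chr2:75055296-75055445): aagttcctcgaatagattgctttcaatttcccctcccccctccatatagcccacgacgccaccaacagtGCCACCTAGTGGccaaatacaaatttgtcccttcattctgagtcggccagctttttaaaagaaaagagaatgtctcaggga
Telomeric, far (chr2:75151076-75151225): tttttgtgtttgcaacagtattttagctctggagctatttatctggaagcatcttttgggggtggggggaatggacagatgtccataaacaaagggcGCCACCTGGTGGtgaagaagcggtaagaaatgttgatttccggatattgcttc

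In the centromeric desert both matches read on the plus strand and in the telomeric desert all 3 on the minus strand, so that the 5 read towards the cluster. Inside the cluster the match between Hoxd13 and Hoxd12 was on the minus strand and the match at Hoxd3os1 on the plus strand, so that the first read towards the centromeric and the second towards the telomeric desert. Over all shared regions with a match on a single strand, 49% had it on the plus strand. Of the matches in the deserts regardless of openness, 23 of 52 in the centromeric desert were on the plus strand and 23 of 38 in the telomeric desert on the minus strand. The direction was looked at after the matches had been seen, and it held less well with 1 mismatch allowed, where 28.4% of all shared regions held a match. Then 5 of 8 centromeric and 3 of 4 telomeric regions with a match on a single strand read towards the cluster. Of the cluster's own regions, the site between Hoxd9 and Hoxd8 gained a match on the plus strand, shown in capitals because it is the third open site of the cluster with the motif.
Between Hoxd9 and Hoxd8, 1 mismatch (chr2:74702336-74702485): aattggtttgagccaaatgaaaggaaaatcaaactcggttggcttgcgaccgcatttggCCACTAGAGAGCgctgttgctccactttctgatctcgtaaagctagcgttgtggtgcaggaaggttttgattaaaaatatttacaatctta

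The cells had been given an androgen, and the androgen receptor binds AGAACA and TGTTCT set 3 bases apart, the palindromic androgen response element (ARE), which other steroid receptors also bind. With up to 2 mismatches, the ARE was found in 0 of 4 regions of the cluster, 3 of 29 of the centromeric desert and 0 of 6 of the telomeric desert, beside 2.75% of all shared regions. In 1 of the 3 the palindrome was complete, and it is shown because only 83 of the 127807 shared regions (0.0649%) held one.
Element in Lnpk (chr2:74522273-74522287): AGAACATCTTGTTCT
The region around it (chr2:74522156-74522325) had scores of 54 in replicate 1 and 80 in replicate 2, at percentiles 51.5 and 75, with a hotspot width of 338 bp in replicate 1 and 614 bp in replicate 2. The element falls in coding exon 13 of the transcript Lnpk-201 and in the untranslated part of exon 14 of Lnpk-202 and Lnpk-203. The others, with 2 mismatches, were in an intron of Atf2 (scores 41 and 44) and in the strong distal site near Atp5g3. Without an untreated library, no value bears on whether the androgen opened any of them.

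Other motifs were counted in the same way. None of the 4 cluster regions held an AP-1 site (TGANTCA, 14.1% of all shared regions), a HOX-PBX site (TGATTNAT, 2.4%), a homeodomain core (TAATTA, 4.17%), an EBF site (TCCC and GGGA set 2 bases apart, 1.95%), a GATA site (AGATAA, 7.69%) or an E-box of the type CAGCTG (13.9%) or CATCTG (17.7%). In the centromeric desert AP-1 sites were in 3 of 29 regions, EBF sites in 2, GATA sites in 2, CATCTG in 7, and CAGCTG, HOX-PBX and TAATTA in 1 each. In the telomeric desert CAGCTG was in 2 of 6 regions, and CATCTG and GATA in 1 each. NFI sites (2.65% of all shared regions) and repeats bound by retinoic acid receptors (1.52%) were in none of the regions of the cluster or the deserts.

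Of 65 genes that act on Hox clusters, 53 had an open promoter (81.5%), and the 12 without one were all among the axial patterning genes. All 11 genes of Polycomb complex PRC2 had a shared promoter region, among them Ezh2, its methyltransferase (149 in replicate 1 and 140 in replicate 2), Rbbp4 (149 and 146), Phf19 (149 and 143) and Jarid2 (143 and 137). So did all 17 of PRC1, whose chromobox subunits Cbx6 (144 and 145) and Cbx8 (147 and 143) were among the highest, with Phc2 (144 and 140). All 9 trithorax and H3K27 demethylase genes were open, with Kmt2b (146 and 137), Men1 (146 and 133), Kmt2a and Dpy30 highest. The 8 genes of CTCF and cohesin were open too, with Stag1 (149 and 144), Nipbl, Rad21 and Smc1a at the top and Ctcf itself at 145 and 136. Most of these genes are used in nearly all cell types, and the background is 59.5%.

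Axial patterning genes, the signals, enzymes and factors that act on Hox genes in the embryo, were divided, with 8 of 20 open (40%). Not all of them activate Hox genes. Receptors for retinoic acid were open at Rarg (145 and 138), Rara (137 and 133), Rxrb (142 and 133) and Rxra (137 and 125). Gdf11, a ligand that switches on posterior Hox genes in the trunk (139 and 132), Gli1 (131 and 125), Gli3 (87 and 68) and Cyp26b1 (103 and 88), which degrades retinoic acid, completed the open set. Aldh1a2, which makes retinoic acid, Cdx1, Cdx2 and Cdx4, direct activators of Hox genes, and T, Fgf8, Wnt3a, Cyp26a1, Rxrg and Gli2 had no promoter peak in either replicate. Rarb (16) and Shh (37) had one in replicate 1 only. Open promoters show neither the amount of a protein nor its presence at the Hoxd cluster, and histone marks were not analysed here.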

How the data were processed

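DNase-seq peaks and hotspots of 2 biological replicates in 1 group were used. Per the listing deposited with each library, the authors made them per library, not pooled, from filtered mm10 alignments and another input. Aligner and caller names were not given in the sources used here. The deposited peak score, from 1 to 150, has no stated meaning and served only to rank peaks within a list. The deposited hotspot value, a −log10 FDR, gave no result here. Read depth is unknown.

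Entries listed more than once (15 and 26) were dropped, and 21 chromosomes kept. All ends fitted the lengths of GRCm38, the assembly of mm10. Genes were those of GENCODE M21, and promoter sequences those of RefSeq (GRCm38.p6). Coordinates are 1-based. Peaks overlapping by at least 1 bp were merged, and regions were placed by their centre. NFI sites (TTGGC and GCCAA, 5 bases apart) were allowed 1 mismatch and repeats of AGGTCA, 5 bases apart, 2. Windows with over 10% unknown bases and intervals across assembly gaps of at least 10 kb were left out.

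With 1 group and neighbouring genes no test was made, and values are descriptions set beside all genes or regions. Members and lists were chosen with earlier results of these data known. All members, all shared regions of the cluster and the highest and farthest of each desert are named, with the highest 4 genes and the first 3 without a peak of each regulator list. Some items that this rule names are not reported here. Others, such as the further axial patterning genes, the partnerless peaks, the element in Lnpk and the regions beyond the limit, were chosen after their values were seen. Steps were tested on simulated data. Python 3.11.15, numpy 2.4.6 and pandas 2.3.3 were used.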

Additional observations from a re-analysis of the deposited data

How the results depend on the processing

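No paired analysis was possible because there is 1 group. The count of members with an open promoter was 0 with hotspots and with either replicate alone. It was 2 (Hoxd12 and Hoxd8) with a 2.5 kb window, as was the count of members with a promoter peak in either replicate. The stronger 50% of peaks, an overlap of at least 75 bp, a 500 bp window and the 5′ end only also gave 0. Those settings only remove peaks or starts, so they could not raise a count of 0 and say nothing on its stability. The share of protein-coding genes with an open promoter (59.5%) was 55.5% with the stronger 50% of peaks, 57.8% with 500 bp, 63.4% with 2.5 kb and 60.8% to 61.9% with a single replicate. With the stronger 50% of peaks the cluster held 2 regions in place of 4, the telomeric desert 3 in place of 6, the centromeric desert 15 in place of 29, and 3 regions had a CTCF match in place of 7. Leaving out a replicate gave 5 to 9 regions in the cluster, 15 to 16 in the telomeric and 39 to 42 in the centromeric desert, and 7 to 8 CTCF matches. A 400 kb desert left 7 regions on the centromeric side, and 1 mismatch raised CTCF matches to 16. The number of open regulator genes (53 of 65) ran to 55 with replicate 1 alone. Of 55 values under other settings, 39 stayed within 1.5 times the count or within 1 SD between replicates. Some of the 39 could not have changed, such as the member counts of 0 under stricter settings, so this number does not measure stability. Unknown depth limits all counts of sites found in 1 replicate.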
